A study of Mus musculus with 10 samples.

Results

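The proteasome subunit genes described here are the 39 genes of the 35976 in the count table whose symbol is Psma, Psmb, Psmc or Psmd followed by a number. They comprise 8 genes of the alpha rings and 11 of the beta rings of the 20S core, and 6 ATPase and 14 non-ATPase genes of the 19S cap. Polyadenylated RNA was sequenced from mouse morulae that were Jarid2 knockout, wild type or controls. The column labels of the pools name the cross BDF1 x PWK, and those of the single embryos name none. Jarid2 encodes a cofactor of the Polycomb complex PRC2, which methylates histone H3 at lysine 27, and the series asks how its loss affects expression at this stage. There were 3 knockout single embryos (replicates 1, 3 and 4) and 3 wild-type (WT) single embryos (replicates 1 to 3), each female and each a library of its own, and 2 knockout pools and 2 control (CTR) pools of about 20 embryos each. The labels give neither the allele nor the way in which the knockout was made, nor the sex of the pooled embryos, nor how the CTR pools differ in genotype from the WT embryos. Separate litters are not stated for the pools either, and p-values there describe the spread between pools that may be technical replicates.

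The proteasome degrades proteins that carry ubiquitin chains. Alpha rings close the 20S barrel at both ends, beta rings inside it carry the proteolytic sites, and the 19S cap recognises, unfolds and feeds in the substrates. Its subunits are needed in fixed proportions, and in mammals many of their genes are induced together by the transcription factor NRF1 (Nfe2l1) when proteasome activity falls short. In the early embryo the proteasome is known for clearing proteins inherited from the egg.

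Jarid2 had 156.1, 318.7 and 61.3 CPM (counts relative to the library's total) in knockout embryos 1, 3 and 4, against 580.3 to 775.6 CPM in the WT embryos, and 180.6 and 157.9 CPM in the KO pools against 442.5 and 496.3 CPM in the CTR pools. Libraries held 18015186 to 18696312 counts in the knockout embryos, 14830332 to 17534188 in the WT embryos, 41003216 and 49861963 in the KO pools and 42906533 and 47458704 in the CTR pools. Each knockout embryo thus had more counts than each WT embryo, and the part of depth in the results was not tested. All 10 morula markers checked, among them Pou5f1, Cdx2 and Dppa3, averaged above 1 CPM in each group, with sums of 3782 to 5144 CPM in knockout embryos, 4862 to 4983 in WT embryos, 4014 to 4066 in KO pools and 4323 to 4463 in CTR pools. Summed markers of cumulus and granulosa cells reached 9.71 CPM and those of spermatozoa 5.13 CPM in any library, with Inhba, Fshr and Lhcgr at 0. Stromal markers summed to 9.27 to 56.1 CPM in knockout embryos and 12.3 to 141.6 CPM in WT embryos, led by Pdgfra, with Dcn at 0. Blood markers summed to at most 51.4 CPM, led by Cd68, with Ptprc, Hba-a2, Hbb-bs and Hbb-bt at 0.

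Proteasome genes took a larger share of the RNA of knockout single embryos than of WT single embryos, while the pools of both genotypes lay together with the knockout embryos. The 39 genes summed to 2.44%, 2.20% and 2.76% of the counts in knockout embryos 1, 3 and 4, against 1.45%, 1.64% and 1.67% in WT embryos 1 to 3. Means were 2.46% ± 0.28 in knockout embryos and 1.59% ± 0.12 in WT embryos (SD, n = 3 each), and the ranges did not overlap. The KO pools gave 2.51% and 2.21% and the CTR pools 2.73% and 2.35%, and these ranges did overlap. For 27 of the 38 genes tested in all 10 libraries, each of the 3 WT embryos lay below each of the other 7 libraries, against 7.29% of all genes tested. These are shares of each library's counts, so they give neither the number of cells nor the amount of proteasome RNA per embryo. Single embryos and pools also differ in embryos per library, in whether the sex is given and in the cross that the labels name. In a comparison of levels across the sets, these differences cannot be told apart from one another or from genotype.

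**Figure D1:**
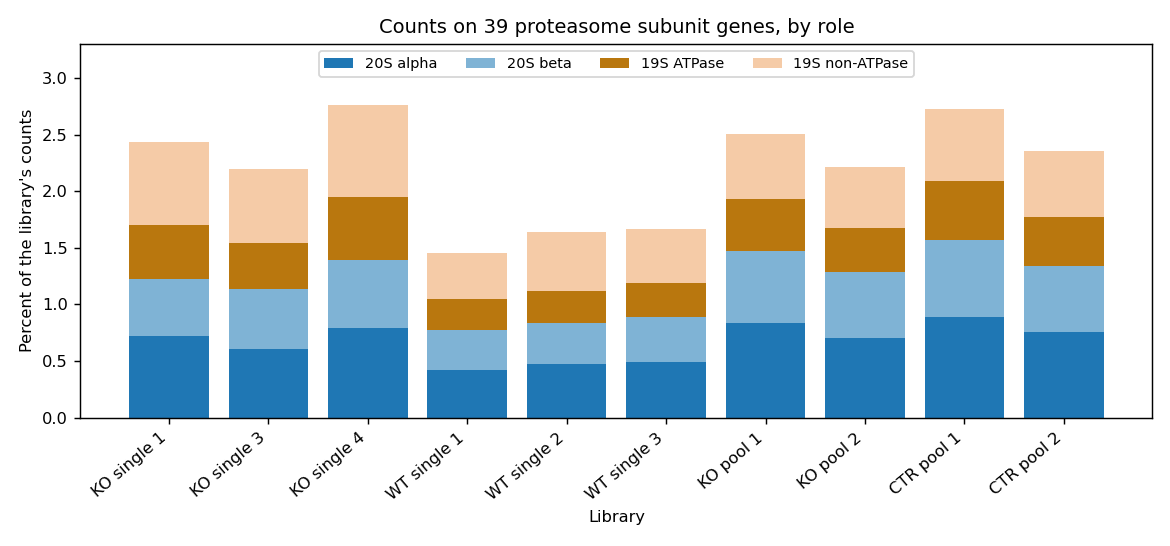
Stacked bars give the percent of each library's counts (y axis) that fell on the 39 proteasome subunit genes, divided by role, for the 10 libraries (x axis). The 3 WT single embryos, at 1.45% to 1.67%, are lower than the other 7 libraries, which lie between 2.20% and 2.76%.

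The difference was present in the core and in the cap. Alpha genes of the core took 0.61% to 0.79% of counts in knockout embryos and 0.42% to 0.49% in WT embryos, and non-ATPase genes of the cap took 0.65% to 0.81% in knockout embryos and 0.41% to 0.52% in WT embryos, neither with an overlap. Of the counts on proteasome genes, the 19S cap held 49.7%, 48.4% and 49.5% in knockout embryos and 47.0%, 49.3% and 47.0% in WT embryos, ranges that overlap. It held 41.4% and 42.1% in KO pools and 42.5% and 43.2% in CTR pools, less than in any single embryo of either genotype.

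In single embryos 11 of 38 genes tested rose and none fell (edgeR quasi-likelihood test, Benjamini-Hochberg adjusted p under 0.05 over all 13830 genes tested). Of all genes tested, 1.16% rose and 3.21% fell by that rule. The filter on low counts removed 1 gene of the 39, Psmb8. A log2 change above 0 was found for 37 of the 38 (48.3% of all genes) and one below 0 for 1 (51.7% of all genes). At an unadjusted p under 0.05, 32 were higher (10.4% of all genes) and none was lower (12.2% of all genes). The embryos did not overlap in CPM for 30 genes that were higher in the knockout (12.6% of all genes) and for 1 that was lower (15.3% of all genes). The median log2 change of the 38 genes was 0.68, with quartiles at 0.56 and 0.85, against -0.03 over all genes tested. Among genes whose protein has no hydrophobic segment, which takes in all but 2 of the 39, the median was 0.14 over 7872 genes, and it was -0.50 over the 3810 with such a segment.

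The call rests on the embryos included. No gene was called without knockout embryo 1, knockout embryo 4, WT embryo 1 or WT embryo 3, settings in which 0.0% to 0.0273% of all genes tested were called higher, so calls were lost across the whole table. Without WT embryo 2, 3 were called (Psma1, Psmd6 and Psmd13; 0.892% of all genes). Without knockout embryo 3, which kept the most Jarid2 RNA, 24 were called, all 11 among them, while the share of all genes called higher was 4.14%, against 1.16% with every embryo. The median change stayed between 0.62 and 0.77 whichever embryo was left out. Knockout embryo 3 had the lowest level among knockout embryos for 24 of the 38 genes and knockout embryo 4 the highest for 28, while WT embryo 1 was the lowest of the WT embryos for 29.

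**Figure D2:**
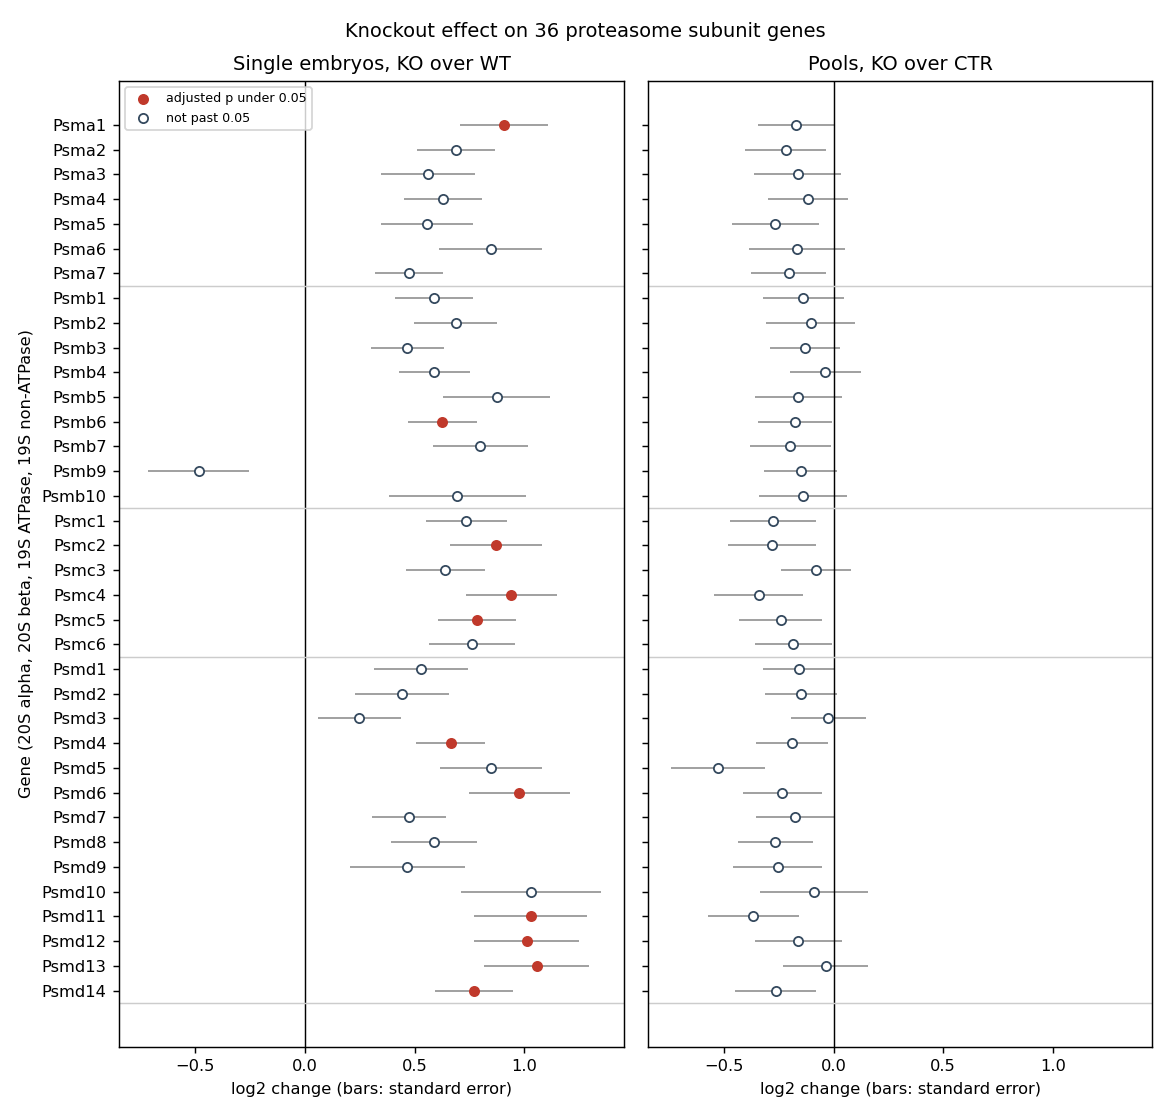
Points give the fitted log2 change and bars its standard error (x axis) for the 36 genes with at least 10 CPM in every library (y axis, by role), knockout over WT in single embryos on the left and KO over CTR in pools on the right. In single embryos all but Psmb9 lie above 0 and 11 are filled as past an adjusted p of 0.05, while in the pools all 36 lie below 0 and none is filled.

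Since most of the genes lay higher in the knockout embryos together, their promoters were searched for TGACNNNGC, the core of the antioxidant response element that NRF1 and NRF2 bind, and for CCAAT, the NF-Y box, on both strands. RefSeq promoters of GRCm38.p6, 250 bases before to 50 after the start, matched 32 of the 39 genes. TGACNNNGC was present in 5 (15.6%; Psmb5, Psmb6, Psmc6, Psmd9 and Psmd12), against 14.0% of 27025 promoters, and CCAAT in 13 (40.6%), against 41.1%. These shares are near those of all promoters, and a match of letters is not a binding site. Of the 5 genes with TGACNNNGC, Psmb6 and Psmd12 rose in single embryos, while Psmb5, Psmc6 and Psmd9 did not pass the test. Printed here are the 250 bases before the start of 2 genes that rose and hold TGACNNNGC, of 1 that rose and holds CCAAT on both strands, and of Psmb9, the 1 gene on the other side, each 5′ to 3′ on the gene's strand, with either motif in capitals. Psmb6 lies at chr11:70525107-70525356 (plus strand), Psmd12 at chr11:107479278-107479527 (plus), Psma1 at chr7:114276117-114276366 (minus) and Psmb9 at chr17:34187331-34187580 (minus). The motif ends at the base before the start in Psmb6 and lies at the far end of the window, on the opposite strand, in Psmd12.
Psmb6: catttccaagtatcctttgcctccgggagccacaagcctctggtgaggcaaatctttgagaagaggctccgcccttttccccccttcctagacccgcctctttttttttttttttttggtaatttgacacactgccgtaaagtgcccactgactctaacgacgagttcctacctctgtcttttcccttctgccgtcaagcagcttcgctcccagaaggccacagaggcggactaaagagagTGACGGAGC
Psmd12: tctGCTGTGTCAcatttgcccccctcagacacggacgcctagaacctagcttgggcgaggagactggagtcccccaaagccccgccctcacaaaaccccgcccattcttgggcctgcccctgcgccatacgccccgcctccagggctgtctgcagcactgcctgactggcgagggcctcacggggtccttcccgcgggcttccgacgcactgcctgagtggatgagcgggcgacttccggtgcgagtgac
Psma1: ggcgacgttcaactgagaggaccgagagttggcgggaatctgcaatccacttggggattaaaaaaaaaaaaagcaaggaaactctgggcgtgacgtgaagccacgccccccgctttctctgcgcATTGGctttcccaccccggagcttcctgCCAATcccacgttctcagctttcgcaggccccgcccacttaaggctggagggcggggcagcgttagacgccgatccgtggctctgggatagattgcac
Psmb9: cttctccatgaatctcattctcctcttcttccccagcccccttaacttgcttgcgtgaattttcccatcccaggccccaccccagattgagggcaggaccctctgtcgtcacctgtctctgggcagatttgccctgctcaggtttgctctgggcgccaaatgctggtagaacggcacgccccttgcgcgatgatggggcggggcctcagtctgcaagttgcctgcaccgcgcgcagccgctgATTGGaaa

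The ATPases of the cap, a ring of 6 different subunits that unfolds substrates, had the highest median change of the 4 roles, 0.77, with a range of 0.64 for Psmc3 to 0.94 for Psmc4, and 3 of 6 rose. Psmc4 (chromosome 7, 28041707 to 28050101, minus strand; GRCm38, as are all positions) had 810.4, 621.5 and 939.7 CPM in knockout embryos 1, 3 and 4 and 393.9, 460.9 and 431.2 CPM in WT embryos 1 to 3. All knockout embryos were above all WT embryos, and the log2 change was 0.94 (SE 0.21, n = 3 each, edgeR adjusted p = 0.0329). Psmc5 (chromosome 11, 106256154 to 106263120, plus strand) had 946.8, 856.1 and 1008 CPM in knockout embryos and 523.7, 533.7 and 632.1 CPM in WT embryos. These groups were also apart, with a log2 fold change of 0.78 (SE 0.18, edgeR adjusted p = 0.0359). Psmc2 was the third of the ring to rise, by a log2 fold change of 0.87 (SE 0.21, edgeR adjusted p = 0.0422). Psmc1 had a log2 fold change of 0.74 and just missed the threshold (edgeR adjusted p = 0.0502), and Psmc6 and Psmc3 had 0.76 and 0.64.

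Among the non-ATPase genes of the cap 6 of 14 rose, and the log2 changes ran between 0.25 for Psmd3 and 1.06 for Psmd13. Psmd13 (chromosome 7, 140881968 to 140898643, plus strand), a scaffold subunit of the lid, the part of the cap that removes ubiquitin chains, had 286.2, 196.7 and 257.4 CPM in knockout embryos and 100.2, 148.6 and 122.9 CPM in WT embryos. The groups did not overlap, and the log2 change of 1.06 (SE 0.24, edgeR adjusted p = 0.0359) was the largest of the 38 in single embryos. Psmd14 (chromosome 2, 61711694 to 61800376, plus strand), the enzyme of the lid that cuts chains off the substrate, had 707.6, 669.7 and 763.7 CPM in knockout embryos and 392.5, 422.5 and 483.7 CPM in WT embryos. Knockout embryos again lay above all WT embryos, with a log2 fold change of 0.77 (SE 0.18, edgeR adjusted p = 0.0373). The lid scaffold genes Psmd6, Psmd11 and Psmd12 rose as well, with log2 changes of 0.98, 1.03 and 1.01 (SE 0.23, 0.26 and 0.24; edgeR adjusted p = 0.0391, 0.0478 and 0.0390). Psmd3, Psmd7 and Psmd8, which also belong to the lid, had log2 changes of 0.25, 0.47 and 0.59 and did not pass (edgeR adjusted p = 0.488, 0.126 and 0.106). Psmd4 (chromosome 3, 95032694 to 95042614, minus strand), a receptor for ubiquitin chains, had 886.0, 935.3 and 944.9 CPM in knockout embryos and 567.6, 608.2 and 626.2 CPM in WT embryos. Its groups did not overlap, and its log2 change was 0.66 (SE 0.16, edgeR adjusted p = 0.0385).

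The large scaffold subunits of the base, Psmd1 and Psmd2, which hold substrates and shuttle proteins, did not pass the test. Psmd1 had a log2 fold change of 0.53 (edgeR adjusted p = 0.169) and Psmd2 one of 0.44 (edgeR adjusted p = 0.252). WT embryo 2 reached 632.7 CPM of Psmd1, 482.1 CPM of Psmd2 and 403.8 CPM of the lid gene Psmd3, within or above the knockout ranges of 619.3 to 897.9, 404.3 to 582.3 and 349.6 to 399.7 CPM. Psmd5, Psmd9 and Psmd10 encode chaperones that help build the cap rather than lasting parts of it. Their log2 changes were 0.85, 0.47 and 1.03, and none passed the test (edgeR adjusted p = 0.0638, 0.324 and 0.0884).

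**Figure D3:**
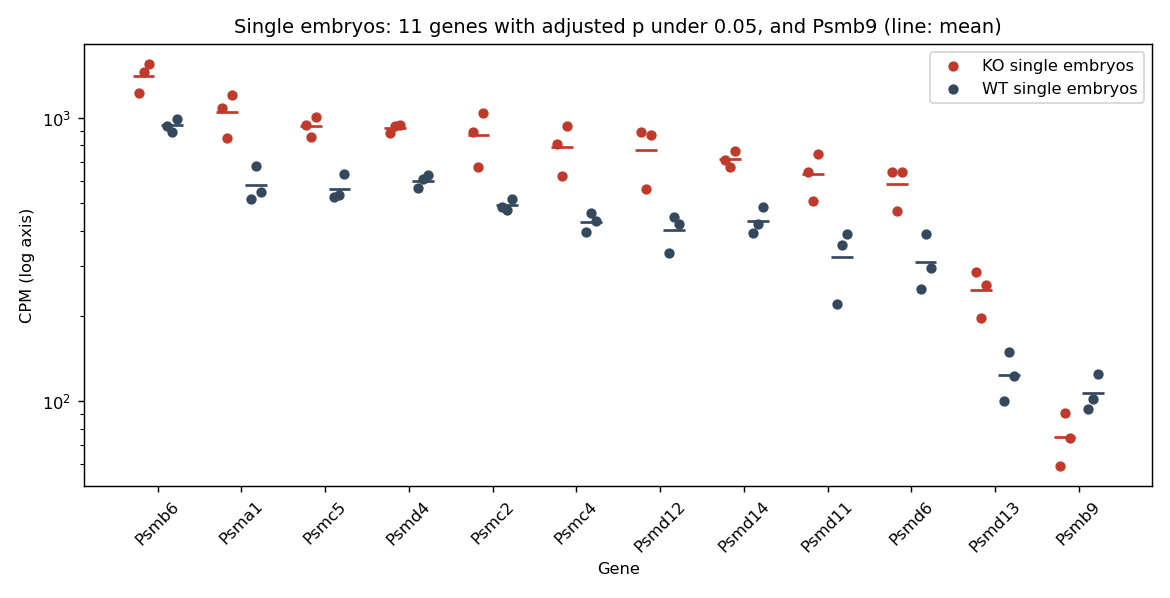
CPM on a log axis (y axis) of the 11 genes with an adjusted p under 0.05 and of Psmb9 (x axis), 1 point for each single embryo, with a line at the group mean. Each of the 11 has its 3 knockout embryos above its 3 WT embryos, and Psmb9 has them below.

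In the alpha rings, which gate the core, 1 of 8 genes rose. Psma1 (chromosome 7, 114264606 to 114276118, minus strand) had 1081, 848.6 and 1204 CPM in knockout embryos and 519.1, 675.1 and 548.4 CPM in WT embryos. The groups stood apart, with a log2 fold change of 0.91 (SE 0.20, edgeR adjusted p = 0.0340). The other 6 that are expressed had log2 changes of 0.48 for Psma7 to 0.85 for Psma6, with edgeR adjusted p values of 0.0540 to 0.152. Of these, Psma3 overlapped between genotypes, since knockout embryo 3 had 500.2 CPM and WT embryo 3 had 504.3 CPM. Psma8, the testis counterpart of Psma7, held 30, 101 and 34 counts in knockout embryos and 9, 15 and 75 in WT embryos. Its log2 change of 0.61 (SE 0.95, edgeR adjusted p = 0.760) turned to -0.04 without knockout embryo 3.

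In the beta rings 1 of 10 genes tested rose. The standard catalytic subunits are Psmb6, Psmb7 and Psmb5, which cut after acidic, basic and hydrophobic residues. Psmb6 had 1225, 1456 and 1549 CPM in knockout embryos and 936.8, 892.9 and 990.7 CPM in WT embryos, with no overlap and a log2 fold change of 0.63 (SE 0.16, edgeR adjusted p = 0.0494). Psmb7 had 519.2, 406.2 and 489.3 CPM in knockout embryos and 270.3, 232.3 and 339.1 CPM in WT embryos. The groups were apart, but the log2 change of 0.80 (SE 0.22) did not pass the test (edgeR adjusted p = 0.0635). Psmb5 had 162.8, 188.9 and 219.8 CPM in knockout embryos and 86.7, 94.0 and 139.5 CPM in WT embryos. It too lay higher in all knockout embryos without passing, at a log2 fold change of 0.87 (SE 0.24, edgeR adjusted p = 0.0661). The non-catalytic Psmb1, Psmb2, Psmb3 and Psmb4 had log2 changes of 0.59, 0.69, 0.47 and 0.59.

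The immune form of the core, best known from interferon-treated and lymphoid cells, exchanges these 3 subunits for Psmb9, Psmb10 and Psmb8, and in morulae its genes did not move as a group. Psmb9 had 59.1, 90.4 and 74.2 CPM in knockout embryos and 93.7, 101.5 and 124.7 CPM in WT embryos. It was the only gene of the 38 with a log2 change below 0, and every knockout embryo was below every WT embryo. The change of -0.48 (SE 0.23, edgeR adjusted p = 0.242) did not pass the test. Psmb10 had 24.6, 23.6 and 26.6 CPM in knockout embryos and 14.1, 19.5 and 14.3 CPM in WT embryos, a log2 fold change of 0.69 (SE 0.31, edgeR adjusted p = 0.216) without overlap. Psmb8 held 7, 0 and 0 counts in knockout embryos and 0, 1 and 0 in WT embryos, and a count of 0 allows up to 0.160 to 0.202 CPM in these libraries, for counting error only. Psmb11, the thymus form of Psmb5, held 12, 14 and 1 counts in knockout embryos and 20, 1 and 0 in WT embryos, and its log2 change of 0.12 had an SE of 1.66.

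Set against its standard counterpart, Psmb9 stood lower in knockout than in WT single embryos. Per kilobase of exon, Psmb9 had 2.85%, 3.67% and 2.83% of the level of Psmb6 in knockout embryos and 5.90%, 6.71% and 7.43% in WT embryos. The log2 ratio differed by -1.11 with no overlap (exact permutation test, two-sided p = 0.1, the smallest that 3 against 3 embryos allow). Psmb9 was lower and Psmb6 higher in every knockout embryo, so this outcome was fixed by those values and adds no support. In the pools the ratio was 2.37% and 3.06% in KO and 2.45% and 2.87% in CTR, which overlap. Psmb10 had 4.19%, 5.14% and 4.80% of the level of Psmb7 in knockout embryos and 4.61%, 7.43% and 3.74% in WT embryos, which also overlap (exact permutation p = 0.9). The exons of Psmb9 share 212 bases with those of Tap1 on the opposite strand, and Tap1 had 32.8 ± 10.5 CPM in knockout embryos and 61.7 ± 12.9 CPM in WT embryos (SD, n = 3 each; log2 change -0.87, SE 0.30, edgeR adjusted p = 0.121). No source used here says whether the counting used strand, and reads of these genes cannot be told apart where they overlap. The same holds for 10 of the 39 genes, among them Psmd13 with Sirt3 and Psmb7 with Nek6, and the annotation also holds pseudogenes named for Psmb5, Psmb6 and Psmb7, whose share in the reads was not tested.

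In the pools no gene passed the test in either direction (edgeR, 38 tested; 0.0% of all 16259 genes tested passed in each direction), and the same count of 0 came from DESeq2 and limma-voom. At an unadjusted p under 0.05, 1 gene was lower, Psmd5 (2.34% of all genes), and none was higher (4.26% of all genes). The log2 changes were small and lay on the other side: 37 of 38 were below 0 (48.7% of all genes) and 1 above (51.3% of all genes), with a median of -0.17 against 0.01 over all genes tested. Medians by role were -0.19 for alpha, -0.14 for beta, -0.26 for ATPase and -0.18 for non-ATPase genes. KO pools lay below both CTR pools for 6 genes (Psma8, Psmb3, Psmd1, Psmd2, Psmd5 and Psmd8; 11.1% of all genes) and above both for 1 gene, Psmb11 (24.3% of all genes). The median was -0.34 without KO pool 1 and -0.06 without KO pool 2.

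Psmd5, the assembly chaperone named above, had 94.4 and 69.3 CPM in KO pools and 121.2 and 102.2 CPM in CTR pools. Both KO pools were lower than both CTR pools, at a log2 fold change of -0.53 (SE 0.21, n = 2 each, edgeR adjusted p = 0.705), and without KO pool 1 it was the 1 gene of the set to pass the test, where 0.727% of all genes tested were called lower and 1.48% higher. Psmd11 had 504.2 and 393.9 CPM in KO pools and 605.0 and 487.3 CPM in CTR pools, and Psmc4 had 683.3 and 558.7 CPM in KO pools and 830.7 and 654.1 CPM in CTR pools. Both genes overlapped between genotypes, with log2 changes of -0.37 (SE 0.21, edgeR adjusted p = 0.822) and -0.34 (SE 0.20, edgeR adjusted p = 0.829). Psmb11 was the only gene with a log2 change above 0, 1.03 (SE 0.85, edgeR adjusted p = 0.871), and rested on 20 and 20 counts in KO pools and 11 and 7 in CTR pools.

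**Figure D4:**
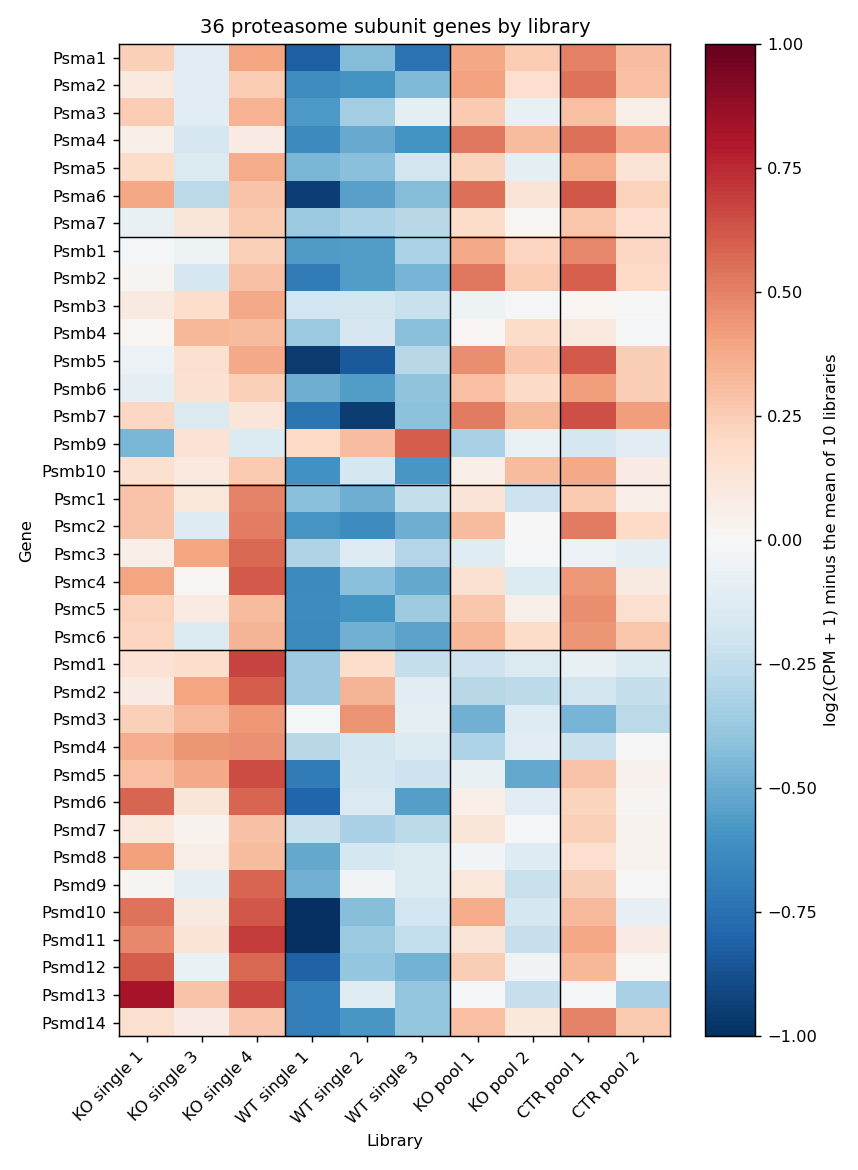
Colour gives log2(CPM + 1) minus its mean over the 10 libraries for the 36 genes with at least 10 CPM in every library (y axis, by role) in each library (x axis). The columns of the 3 WT single embryos are mostly blue, with Psmb9 as the row in the opposite colour, and the other 7 columns are mostly red or pale; values past 1 in size take the end colour.

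The knockout effect was compared between the sets in a fit over all 10 libraries. No gene passed for the difference (edgeR, 38 tested, lowest adjusted p = 0.235; 0.0% of all 15878 genes tested were called higher and 0.0063% lower). The knockout effect was higher in single embryos than in pools for 32 genes at an unadjusted p under 0.05, against 8.1% of all genes, with log2 differences of 0.62 to 1.41. The difference was above 0 for 36 of the 38, against 47.9% of all genes. DESeq2 called 19 genes for the difference (2.01% of all genes higher, 1.42% lower), and edgeR called 16 with no filter on low counts (1.32% higher, 0.761% lower). All knockout embryos lay above all WT embryos for 30 of the 38 genes (12.6% of all genes). Both KO pools lay below both CTR pools for 6 of the 38 (11.1% of all genes). The share of all genes that meet both rules was not determined. Among the 38, both rules were met by Psmb3, Psmd5 and Psmd8, and without that share their number is not read as a result. Their differences were 0.62 (SE 0.23, edgeR adjusted p = 0.257), 1.40 (SE 0.35, edgeR adjusted p = 0.235) and 0.87 (SE 0.28, edgeR adjusted p = 0.235). No gene passed for the average of the effects in both sets either (edgeR, lowest adjusted p = 0.240; 0.0378% of all genes were called higher and 0.214% lower). By DESeq2 and limma-voom this count was also 0, and 8 genes were higher at an unadjusted p under 0.05 in edgeR, against 5.05% of all genes.

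Levels of different genes are compared here as counts per kilobase of exon, scaled to the same total in each library as TPM values are. By the mean of the 4 groups Psmb6 stood first, with 3297 ± 396 in knockout embryos, 2290 ± 94 in WT embryos (SD, n = 3 each), 3462 ± 158 in KO pools and 3707 ± 268 in CTR pools (SD, n = 2 each). Psma7, Psmb2 and Psma6 came next. The catalytic partners of Psmb6 were lower, Psmb7 at 757.8 in knockout and 469.6 in WT embryos (place 16) and Psmb5 at 395.4 in knockout and 230.6 in WT embryos (place 25). Psmb9, with 103.1 in knockout and 153.3 in WT embryos, was at place 32, and Psmb10, with 35.4 in knockout and 23.7 in WT embryos, at place 36. Psma8, Psmb11 and Psmb8 came last, with Psma8 the highest of them at 3.31 in knockout and 2.20 in WT embryos. By role, the ATPases were the most even, running from 517.0 for Psmc3 to 1327 for Psmc5 in knockout embryos and from 356.6 to 831.6 for the same genes in WT embryos. The non-ATPase genes ran from 57.8 for Psmd5 to 936.0 for Psmd4 in knockout embryos and from 34.6 for Psmd5 to 709.5 for Psmd7 in WT embryos. Exon length is the union over the transcripts of the basic annotation, so genes with a long alternative exon, such as Psmd5 with 4397 bases, are set low.

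**Figure D5:**
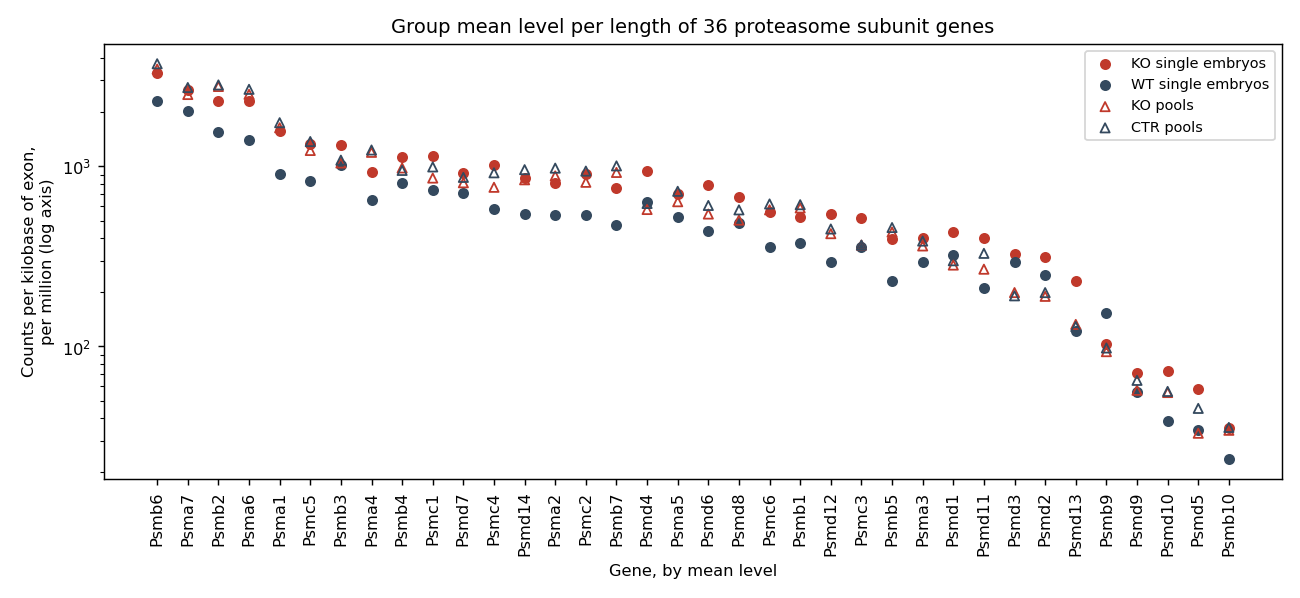
Points give the group mean of counts per kilobase of exon, scaled to the same total in each library (y axis, log), for the 36 genes with at least 10 CPM in every library, ordered by their mean over the 4 groups (x axis). Psmb6 leads and Psmb10 is last, and the WT single embryos are the lowest of the 4 groups for most genes, with Psmb9 the other way round.

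Genes that build, cap or serve the proteasome were also examined. Of 21 assembly factors, activators and associated proteins, none passed the test in single embryos (edgeR, where 1.16% of all genes rose and 3.21% fell). At an unadjusted p under 0.05, 7 were higher (10.4% of all genes) and none was lower (12.2% of all genes). The median log2 change of the 21 was 0.37. Txnl1, a thioredoxin-like protein bound to the cap, had 413.7 ± 32.5 CPM in knockout embryos and 266.6 ± 23.8 CPM in WT embryos (SD, n = 3 each; log2 change 0.68, edgeR adjusted p = 0.0521). Usp14, a deubiquitinase on the cap, had 572.6 ± 119.2 CPM in knockout embryos and 330.4 ± 56.9 CPM in WT embryos (log2 change 0.85, edgeR adjusted p = 0.0638). Pomp, the chaperone of the core, had log2 0.50 and Psmf1, an inhibitor of the core, 0.88. In contrast Sem1 (Shfm1 in the table), a small subunit of the lid outside the Psm names, had 748.9 ± 70.9 CPM in knockout embryos and 810.6 ± 148.5 CPM in WT embryos. The regulators Psme3 and Psme4 had log2 changes of 0.07 and -0.04.

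Of 12 genes tested from a list around NRF1, which also holds Nfe2l2, Mafg, Maff and Mafk, 1 rose and 2 fell in single embryos. Of all genes tested, 1.16% rose and 3.21% fell. Ufd1 (Ufd1l in the table), a cofactor of the segregase Vcp that extracts proteins from the endoplasmic reticulum, had 363.2, 326.6 and 401.0 CPM in knockout embryos and 160.0, 176.6 and 210.9 CPM in WT embryos. It was higher in every knockout embryo, with a log2 fold change of 1.04 (SE 0.20, edgeR adjusted p = 0.0232). Sel1l and Syvn1, the adaptor and the ubiquitin ligase of degradation at the endoplasmic reticulum, both fell. Sel1l had 20.4, 46.4 and 23.0 CPM in knockout embryos and 102.4, 85.5 and 95.2 CPM in WT embryos (log2 change -1.64, SE 0.30, edgeR adjusted p = 0.0204). Syvn1 had 10.05, 17.3 and 11.4 CPM in knockout embryos and 38.1, 34.8 and 25.7 CPM in WT embryos (log2 change -1.32, SE 0.32, edgeR adjusted p = 0.0456). Neither gene overlapped between genotypes, and 15.3% of all genes were lower in the knockout without overlap. Of the 3810 genes tested whose protein has a hydrophobic segment, 380 fell. Whether Sel1l and Syvn1 follow that class was not tested. Nfe2l1 itself, which encodes NRF1, had 30.1, 57.1 and 28.7 CPM in knockout embryos and 121.5, 59.7 and 80.0 CPM in WT embryos. It was lower in each knockout embryo, by 1.15 on the log2 scale with an SE of 0.33, and did not pass the test (edgeR adjusted p = 0.0726). Nfe2l2, which encodes the related NRF2, had a log2 fold change of 0.62 (edgeR adjusted p = 0.147).

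Of 13 tested genes for ubiquitin and for the proteins that carry it to the proteasome, 1 fell and none rose in single embryos. Over all genes tested, 3.21% fell and 1.16% rose. Rad23b, a shuttle that binds ubiquitin chains and the cap, had 153.7, 177.9 and 143.0 CPM in knockout embryos and 359.7, 286.2 and 332.7 CPM in WT embryos. The embryos did not overlap, and the log2 change was -1.003 (SE 0.18, edgeR adjusted p = 0.0202). The ubiquitin gene Ubb had a log2 fold change of 0.87 (SE 0.31) and did not pass the test (edgeR adjusted p = 0.124). In the pools none of these 3 lists held a gene past the test (edgeR, 0.0% of all genes in each direction). At an unadjusted p under 0.05, Mafk was higher by log2 0.76 and Psme2 lower at -0.42 (4.26% and 2.34% of all genes). Median log2 changes were -0.12 for the assembly list, 0.04 for the NRF1 list and 0.03 for the ubiquitin list.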

How the data were processed

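The authors deposited a table of whole-number read counts per gene and library, without normalization. Per the submitters' processing notes the tools were fastp 0.21.0, STAR 2.7.6a and RSEM 1.3.1 with the assembly mm10 (GRCm38). No source used here says which of them produced the counts, which gene models were used, or how strand and multiply mapped reads were handled. Per the labels' protocols, cDNA was made with SMART-Seq v4 and libraries with Nextera XT, and reads were single-end. There were no molecular identifiers, so reads are not independent molecules and count-based limits cover counting error only.

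The whole table was fitted in R 4.3.3 with edgeR 4.0.16 (filterByExpr with groups, TMM scaling, quasi-likelihood F test, two-sided, Benjamini-Hochberg over all genes tested, 5%), separately for single embryos and pools. A fit over all 10 libraries gave the difference between both knockout effects, and their average. Standard errors of log2 changes were derived from the F statistics. CPM used library totals. Exon lengths and overlaps came from the basic annotation of GENCODE M21 on GRCm38. A hydrophobic segment is a window of 19 residues with a mean Kyte-Doolittle hydropathy of at least 1.6 in the longest coding sequence, a class known for 84.5% of the genes tested in single embryos. Alternatives were DESeq2 1.42.0, limma-voom 3.58.1, other scalings and filters, 1 fit of all libraries, the replicate number as a block, and 1 library left out at a time. The method was tested on simulated counts with known changes. Of 2-fold changes it recovered 15.5% in single embryos and 28.4% in pools, and of 4-fold changes 62.8% and 76.1%. A gene that did not pass may therefore still differ. Of 79 calls in the simulated single embryos 5 were false, and of 106 in the simulated pools 9 were. The changed genes were drawn at random from all genes past the filter, so these rates are not specific to the proteasome genes. Libraries of the same group differed beyond sampling noise (chi-square per gene 49.4 to 88.4).

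The members and lists were chosen with earlier results of these data known. Full values are given for members past 5%, up to the 6 with the smallest p per set and direction, or the 3 with the smallest p where none passed, and for the catalytic and tissue-restricted subunits; others are given by role. The genes Psmd1, Psmd2, Psmd3, Psma3, Psmb3, Psmd8, Psmd9 and Psmd10, and those named from the lists, were chosen after their values were seen.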

Additional observations from a re-analysis of the deposited data

How the results depend on the processing

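For the 11 genes called in single embryos, which compare with 1.16% of all genes called higher, counts were 13 with DESeq2 size factors (1.37% of all genes), 16 with library totals alone (1.36%), 18 with limma-voom (1.54%), 21 with upper-quartile scaling (2.18%) and with no filter on low counts (3.16%), 24 with a minimum mean of 10 CPM (5.46%), and 27 with DESeq2 (6.88%) and with all 10 libraries in 1 fit (4.98%). All 11 were among them each time. With the replicate number as a block the count was 0 in single embryos and in pools (0.412% and 0.178% of all genes called higher). Both sets share only 2 replicate numbers, too few to show a pairing. Deviations of same-numbered libraries from their group means correlated at -0.01 and -0.08 in single embryos and at 0.32 in pools. With 2 pools in a group the deviations mirror each other, so the -0.32 of different numbers is fixed by the 0.32. The KO pool lay below the CTR pool of its own number for 35 genes (number 1) and 28 genes (number 2) of 38, Psmd11 and Psmc4 in both. The shares of all genes were not determined. Each count compares 1 library with 1 other, so it is not read as a result about the genes. Leaving out 1 library gave 0 to 24 genes in single embryos (0.0% to 4.14% of all genes called higher) and 0 to 1 in pools (0.0403% to 0.727% called lower), with medians of 0.62 to 0.77 in single embryos and -0.34 to -0.059 in pools; where 1 pool was left, it was assumed to vary like the others. The difference between sets gave 19 genes with DESeq2, 16 without the filter and 0 in the other alternatives; the average gave 0 in each. A log2 change above 0 in single embryos was found for 35 of the 38 genes in all 15 alternatives, and one below 0 in pools for 23 of the 38 in all 13. Library totals alone moved the median difference between sets over all genes from -0.05 to -0.21.

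In single embryos, leaving out 1 library gave -0.044 to 2.05 for Psma8 and -0.46 to 3.84 for Psmb11. In pools it gave -0.42 to 0.056 for Psma3, -0.30 to 0.046 for Psma4, -0.47 to 0.091 for Psma6, -0.30 to 0.035 for Psmb1, -0.32 to 0.14 for Psmb2, -0.12 to 0.045 for Psmb4, -0.36 to 0.066 for Psmb5, -0.32 to 0.054 for Psmb10, -0.14 to 0.082 for Psmd3, -0.47 to 0.21 for Psmd10, -0.38 to 0.034 for Psmd12 and -0.23 to 0.15 for Psmd13. Pool values also turned above 0 for Psmb4 (0.0099 with upper-quartile scaling, 0.055 with library totals, 0.023 with the CPM minimum), Psmd3 (0.025, 0.070 and 0.038 in that order), Psmd13 (0.011, 0.049 and 0.022) and Psmc3 (0.0091 with library totals). The cause was not tested. With the 100 most abundant genes left out of the total, the members summed to 3.02% in knockout and 1.92% in WT embryos and to 2.96% in KO and 3.18% in CTR pools. With TMM library sizes the median level per kilobase over members was 666.7 in CTR pools, against 612.1 with library totals. Depth limits Psmb8 and Psmb11, whose differences were not detectable at these counts.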
